A study of Mus musculus with 9 samples.

Results

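The thick filament and M-band genes examined here encode 9 proteins of the A-band of the sarcomere: the myosin-binding proteins Mybpc1, Mybpc2, Mybpc3, Mybph and Mybphl, the myomesins Myom1, Myom2 and Myom3, and titin (Ttn). They were taken by gene name from the deposited table of sham quadriceps against sham heart, in which they account for 12 of 35745 RefSeq transcripts and 9 of 24537 gene names. All 12 transcripts passed the filter on low counts, which left 24280 transcripts for testing.

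The study followed mice with transverse aortic constriction (TAC) or sham surgery and sequenced RNA of quadriceps and heart in 9 libraries of 3 groups. Both groups compared here were C57Bl6 mice by the labels, given as wild-type males of the substrain C57Bl/6JCrl in the study's methods, that were 8 weeks old at a sham operation by the labels and were sampled 12 weeks later. One group was 3 libraries of heart and the other was 3 libraries of quadriceps, a large and mainly fast muscle of the thigh. The third group, TAC quadriceps, was measured in a table of 587 genes that lists 0 of the 9 members, so nothing is said here about TAC. The labels do not name the heart chamber and do not say whether heart and quadriceps came from the same mice. They give replicate numbers only, and p-values measure the spread between these libraries, which may be partly technical.

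Each library held between 23383452 counts (quadriceps 3) and 38382751 counts (heart 2). Levels are given as deposited RPKM, which are counts divided by the length of the transcript and by the total count of the library, and these are used wherever genes are set beside each other. Differences between tissues are log2 fold changes of quadriceps over heart from edgeR's quasi-likelihood test after TMM scaling, with p-values adjusted by the Benjamini-Hochberg method over all 24280 transcripts and a call at an adjusted p under 0.05. TMM-scaled CPM are counts divided by library sizes on that same scale, with no correction for length. The choice of scaling matters for the smaller differences: dividing by library totals instead moved the median log2 fold change of all transcripts by -0.75, from -0.06 to -0.80.

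The thick filament is a bundle of myosin that runs through the A-band. Titin spans from the Z-disc to the M-band and acts as a molecular spring and as a template for the filament, myosin-binding proteins C sit in regular stripes on it and tune how myosin heads meet actin, and myomesins cross-link neighbouring filaments at the M-band. Striated muscles are known to build these structures from different members of the same families: Mybpc3 is the cardiac form of myosin-binding protein C, a gene often mutated in hypertrophic cardiomyopathy, while Mybpc1 and Mybpc2 are the slow and fast skeletal forms.

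Markers of each tissue were high in the libraries labelled with it. The 5 cardiomyocyte markers (Myh6, Tnnt2, Tnni3, Ryr2 and Pln) summed to 17464 RPKM in heart and 4.61 RPKM in quadriceps, and 5 of 5 were called lower in quadriceps. The 8 fast fibre markers summed to 883 RPKM in heart, nearly all of it Ckm (881 RPKM), a creatine kinase that the heart also uses, and to 46098 RPKM in quadriceps. The adult myosin heavy chains in quadriceps were 84.2% ± 4.15 Myh4, 10.6% ± 3.13 Myh1, 4.42% ± 1.13 Myh2 and 0.791% ± 0.161 Myh7 per length (SD, n = 3), and in heart they were 94.1% ± 0.686 Myh6 and 5.92% ± 0.686 Myh7. As these are bulk samples, fewer cells of a type and less RNA per cell cannot be told apart in any of the results.

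Of the 12 transcripts, 10 were called, against 66.6% of all transcripts tested in this comparison of 2 different organs. Those called higher in quadriceps were 8 (32.2% of all transcripts) and belonged to Mybpc1, Mybpc2, Mybph, Myom2, Myom3 and Ttn. Those called lower were 2 (34.4% of all transcripts), from Mybpc3 and Mybphl, and both transcripts of Myom1 were not called. The study's own criterion for quadriceps genes was a log2 fold change past 2 and a p under 0.05, taken here before adjustment. It was met by 5 transcripts of 4 genes (7.00% of all transcripts), and the opposite by 2 transcripts of 2 genes (8.64%). On TMM-scaled CPM, the libraries of the tissues did not overlap for 10 of the 12 transcripts, against 72.6% of all transcripts. In RPKM, Myom1 (NM_001083934) did not overlap, at 251 to 275 in heart and 166 to 203 in quadriceps. Myom2 did overlap in RPKM, at 140 to 186 and 132 to 160. The median log2 fold change of the 12 was 1.55. With library totals in place of TMM the call counts were 7 higher and 4 lower, where 13.3% of all transcripts were called higher and 62.6% lower.

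**Figure D1:**
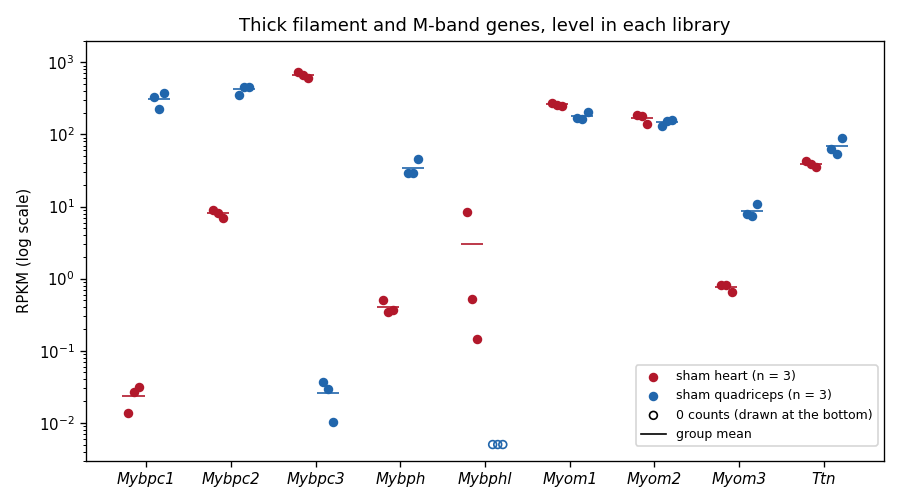
Level of each gene in RPKM (log axis) in the 3 sham heart and 3 sham quadriceps libraries, with 1 transcript a gene, the one with the highest mean count; points are libraries, lines are group means and open circles are libraries with 0 counts. Mybpc3 stood at 599 to 736 RPKM in heart and Mybpc2 and Mybpc1 at 226 to 459 RPKM in quadriceps, while over both tissues Myom1 lay at 166 to 275, Myom2 at 132 to 186 and Ttn at 35.7 to 89.5 RPKM.

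Mybpc3 was the highest of the 9 genes in heart. Its counts were 112285, 105331 and 81657 in heart 1, 2 and 3, and 5, 4 and 1 in quadriceps 1, 2 and 3. Every heart library was thus far above every quadriceps library, and the gene was close to undetected in quadriceps. Its level was 667 ± 68.4 RPKM in heart and 0.0257 ± 0.0138 RPKM in quadriceps (SD, n = 3), a log2 fold change of -13.80 (SE 0.28, adjusted p = 1.78e-09, edgeR's quasi-likelihood test). Against the 10 counts of the 3 quadriceps libraries together, heart was 14572-fold higher on the TMM-scaled CPM, with a 95% Poisson interval of 7924 to 30388 that covers counting error only. Mybpc3 lies on chromosome 2 (GRCm38, 91118144 to 91136516, plus strand) and its transcript NM_008653 has 35 exons.

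Mybpc1, the slow skeletal form, was the reverse. The transcript NM_001252372 had 2, 4 and 4 counts in heart and 42275, 29114 and 34642 counts in quadriceps, with no overlap. That is 0.0238 ± 0.00891 RPKM in heart and 312 ± 78.4 RPKM in quadriceps (SD, n = 3), a log2 fold change of 14.37 (SE 0.34, adjusted p = 2.49e-09, edgeR's quasi-likelihood test). Quadriceps was 22208-fold higher against the 10 counts of the 3 heart libraries, with a 95% Poisson interval of 12076 to 46310. The level of this slow form in quadriceps stood beside a slow myosin heavy chain (Myh7) of 35.6 RPKM and fast chains Myh4, Myh1 and Myh2 of 3861, 470 and 199 RPKM. Quadriceps 2 was lowest for Mybpc1, at 226 RPKM against 331 and 379 in quadriceps 1 and 3. It was also lowest for Myh1 (353 RPKM against 511 and 545) and Myh2 (142 RPKM against 202 and 252). By RPKM the members Ttn, Myom1 and Myom3 were lowest in quadriceps 2 too. But quadriceps 2 was highest for the slow chain Myh7 (41.0 RPKM against 26.0 and 39.7). The fast fibre markers Tnnt3, Tnni2, Mylpf, Actn3 and Ckm were also highest there, while Myh4 and Ryr1 were lowest in quadriceps 1.

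Mybpc2, the fast skeletal form, was high in quadriceps and present at a low level in heart. Its counts were 1207, 1118 and 833 in heart and 40756, 54086 and 38572 in quadriceps. The tissues did not overlap, but unlike Mybpc1 the heart libraries were far from 0. Its level was 8.06 ± 1.03 RPKM in heart and 421 ± 63.7 RPKM in quadriceps (SD, n = 3), a log2 fold change of 6.47 (SE 0.23, adjusted p = 2.03e-08, edgeR's quasi-likelihood test), or 88.3-fold on the TMM-scaled CPM.

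Mybph encodes myosin-binding protein H, a shorter relative of the C proteins that also sits in the A-band of skeletal muscle. It had 34, 24 and 22 counts in heart and 1704, 1758 and 1934 counts in quadriceps, with no overlap. Its level was 0.405 ± 0.0873 RPKM in heart and 34.5 ± 9.53 RPKM in quadriceps (SD, n = 3). The log2 fold change was 7.16 (SE 0.28, adjusted p = 3.73e-08, edgeR's quasi-likelihood test).

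Heart as a percentage of quadriceps, on TMM-scaled CPM, was larger for Mybpc2, Mybph and Myom3 than for most defining markers of fast fibres. It was 1.13% for Mybpc2, 0.694% for Mybph and 5.13% for the myomesin Myom3. Of the 8 fast fibre markers, 7 lay between 0.00120% (Actn3) and 0.0117% (Ryr1), with Myh4 at 0.00272%, and Ckm, which the heart expresses, was at 5.69%. Mybpc1, at 0.00454%, lay among those 7. These percentages also rest on the level in quadriceps: in counts, Myh4 (50, 34 and 32 in heart 1, 2 and 3) was above Mybph (34, 24 and 22) in each heart library.

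Within the family, counted per length, a single member made up the heart and a mixture made up quadriceps. Mybpc3 was 98.4% ± 0.628 of the summed RPKM of the 5 myosin-binding protein genes in heart, Mybpc2 1.19% ± 0.0271 and Mybphl 0.400% ± 0.607 (SD, n = 3). The Mybphl share rested on heart 1 and was 0.0499% without it. In quadriceps Mybpc2 was 55.1% ± 7.98, Mybpc1 40.5% ± 7.83 and Mybph 4.45% ± 0.613. Mybpc2 exceeded Mybpc1 in each quadriceps library, at 49.1% against 46.8%, 64.1% against 31.7% and 51.9% against 42.9%, but the ranges of the pair in RPKM overlapped across libraries. The family sum was 679 ± 73.6 RPKM in heart and 767 ± 101 RPKM in quadriceps, and these overlapped.

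**Figure D2:**
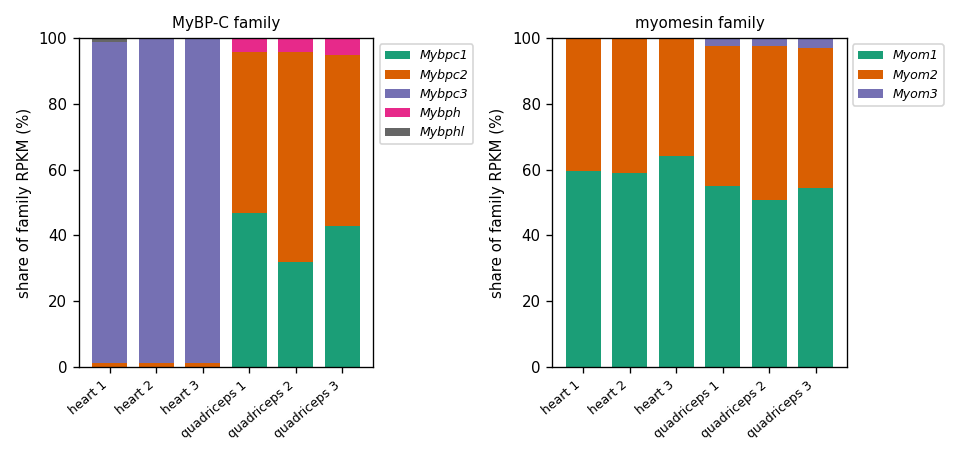
Share of each gene (%) in the summed RPKM of the myosin-binding protein family (left) and of the myomesin family (right), with 1 bar a library. Mybpc3 filled 97.6% to 98.8% of the family in heart, and Mybpc2 and Mybpc1 shared quadriceps, while Myom1 was the larger myomesin in all 6 libraries.

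The starts of these genes are shown because members with opposite directions could be set side by side. RefSeq promoter sequences (GRCm38.p6) were found for 8 of the 9 genes. Short motifs, 5 in number, were searched on both strands in the 250 bases before the start: the E-box CANNTG bound by myogenic factors, the MEF2 motif (CTA and TAG with any 4 bases between them), the MCAT motif CATTCC (on the other strand read as GGAATG), the TATA motif TATAAA (on the other strand read as TTTATA) and the GATA motif AGATAA (on the other strand read as TTATCT). The 160 bases printed for 4 genes are given 5′ to 3′ on the strand of the gene, with these motifs in capitals, at chr2:91117954-91118113 (plus strand) for Mybpc3, chr2:76982558-76982717 (minus) for Ttn, chr1:134193258-134193417 (plus) for Mybph and chr7:44524716-44524875 (minus) for Mybpc2.
Mybpc3: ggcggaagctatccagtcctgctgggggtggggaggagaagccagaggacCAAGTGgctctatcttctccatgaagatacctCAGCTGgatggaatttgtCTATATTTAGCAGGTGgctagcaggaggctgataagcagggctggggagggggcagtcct
Ttn: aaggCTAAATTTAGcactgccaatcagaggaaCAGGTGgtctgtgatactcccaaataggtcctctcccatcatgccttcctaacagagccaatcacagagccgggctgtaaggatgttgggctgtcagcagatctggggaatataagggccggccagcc
Mybph: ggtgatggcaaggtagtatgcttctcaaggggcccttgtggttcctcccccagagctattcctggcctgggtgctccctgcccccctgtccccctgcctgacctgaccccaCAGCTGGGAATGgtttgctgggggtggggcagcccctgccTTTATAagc
Mybpc2: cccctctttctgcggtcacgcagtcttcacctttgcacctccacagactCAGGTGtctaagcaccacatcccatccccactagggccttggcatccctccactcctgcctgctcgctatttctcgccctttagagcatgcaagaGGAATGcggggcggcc

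The MEF2 letters were in 2 of 8 member promoters, against 3.20% of all 32851 RefSeq promoters. They read CTATATTTAG in Mybpc3, from base -90 to the start, and CTAAATTTAG in Ttn, from base -166, so a gene that was lower in quadriceps and one that was higher there both held them. In Mybpc3 an E-box followed directly, CAGGTG from base -80. The MCAT letters were in 2 of 8, Mybph (from base -73, next to the E-box CAGCTG) and Mybpc2 (from base -62), against 12.6% of all promoters. Mybpc1, Myom3 and Ttn, also called higher in quadriceps, lacked them, and Myom2 had no promoter sequence. TTTATA was in 1 of 8, Mybph (12.4% of all promoters), and the GATA letters in 2 of 8, Mybphl and Myom1 (9.99%). E-boxes were in 7 of 8, against 66.2%. These matches describe letters in a window and no binding was measured.

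Mybphl, a short relative of Mybph that is known from the atria and the conduction system, was unlike the others in its spread. Its counts were 389, 25 and 6 in heart 1, 2 and 3, and 0 in each quadriceps library. The tissues did not overlap, but heart 1 held most of the signal. Its level was 8.30, 0.515 and 0.143 RPKM in the heart libraries. Against a floor of 3 counts in each quadriceps library, the heart mean was at least 21.7-fold higher, and heart 1, 2 and 3 alone were at least 60.5-fold, 3.68-fold and 1.03-fold higher. The adjusted p was 0.0403 (edgeR's quasi-likelihood test), and without quadriceps 1, 2 or 3 it was 0.0954, 0.0790 or 0.0835. Without heart 1, the mean of heart 2 and 3 was at least 2.36-fold above the floor and the adjusted p was 0.0123.

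The atrial markers moved in the same order across the heart libraries. All 4 of them (Nppa, Myl7, Myl4 and Sln) were highest in heart 1 and lowest in heart 3, and their summed level was 1038, 642 and 286 RPKM, of which Nppa, the most abundant, made up 687, 610 and 283 RPKM. In TMM-scaled CPM, heart 1 was 58.5 times heart 3 for Mybphl, 624 times for Myl7, 378 times for Sln, 67.5 times for Myl4 and 2.45 times for Nppa. The same ratio was 1.24 for Mybpc3, 1.22 for Ttn and 1.09 for Myh6. For Myl7, which defines atrial muscle, the heart libraries held 2075, 164 and 3 counts. In quadriceps it had 1 count in a single library, and the 4 markers summed to 15.6, 6.37 and 8.70 RPKM, with Sln the highest. The part of atrial tissue in the Mybphl result was not tested.

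**Figure D3:**
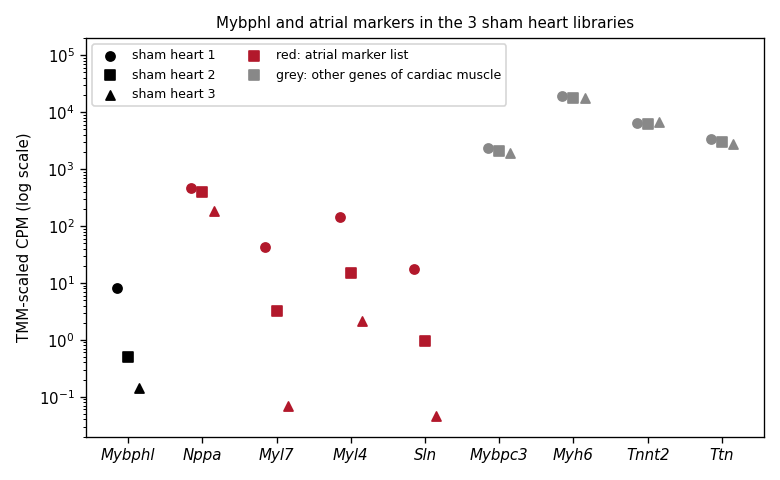
TMM-scaled CPM (log axis) of Mybphl, 4 atrial markers and 4 other genes of cardiac muscle in the 3 sham heart libraries, with 1 point a library. Mybphl, Myl7, Myl4 and Sln spread by 58.5-fold or more between heart 1 and heart 3, while Mybpc3, Myh6, Tnnt2 and Ttn lay within 1.24-fold.

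Titin is the longest transcript in the set, listed at 101359 bases for NM_011652 and 81737 bases for NM_028004. NM_011652 had 161779, 152216 and 119785 counts in heart and 209579, 180711 and 212069 counts in quadriceps. In TMM-scaled CPM this was 3397, 3026 and 2790 in heart and 7706, 7554 and 11984 in quadriceps, so that every quadriceps library was above every heart library, with quadriceps 3 the highest. The log2 fold change was 1.56 (SE 0.21, adjusted p = 0.000140, edgeR's quasi-likelihood test), and with library totals it was 0.81 (adjusted p = 0.00637). The other transcript gave 1.53 (SE 0.21, adjusted p = 0.000158), but the pair shares most exon bases and is not separate evidence. In RPKM, NM_011652 stood at 39.3 ± 3.69 in heart and 68.9 ± 18.4 in quadriceps (SD, n = 3).

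The 2 titin transcripts differ in the spring region. NM_011652, of 312 exons, has 22411 exon bases in 123 stretches that NM_028004, of 192 exons, lacks. NM_028004 has 3850 bases of its own in 5 stretches, the longest at chr2:76907308-76909953 (GRCm38, 2646 bases, exonic). NM_011652 exceeded NM_028004 by 454, 502 and 762 counts in heart and by 5889, 4104 and 5642 counts in quadriceps. This net difference was 0.416% ± 0.193 of the NM_011652 counts in heart and 2.58% ± 0.278 in quadriceps (SD, n = 3), and the libraries of the tissues did not overlap. The log2 ratio of the transcripts was 0.03 higher in quadriceps (two-sided exact permutation test, p = 0.1, adjusted over 3 pairs p = 0.15), and 0.1 is the smallest p that 3 against 3 libraries can give. The sources used here do not state how reads shared by transcripts were counted, so the net difference mixes reads from the bases that either transcript holds alone. Rbm20, a known regulator of titin splicing, was at 27.7 RPKM in heart and 5.70 RPKM in quadriceps, a log2 fold change of -1.52 (adjusted p = 1.01e-05, edgeR's quasi-likelihood test).

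Pairs of transcripts were also listed for Mybpc1 and Myom1. The Mybpc1 pair differed by 0 counts in every heart library, where at most 4 counts were present, and by 97, 89 and 73 counts in quadriceps (exact permutation test, p = 0.1, adjusted p = 0.15). For Myom1, NM_010867 carries 333 exon bases that NM_001083934 lacks, most of them in a stretch of 294 bases at chr17:71082203-71082496. It nevertheless had fewer counts by 119, 144 and 153 in heart and by 102, 123 and 93 in quadriceps, and the ratio overlapped between tissues (exact permutation test, p = 0.2, adjusted p = 0.2). A net excess of counts for the transcript with the added bases was thus not seen in either tissue.

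**Figure D4:**
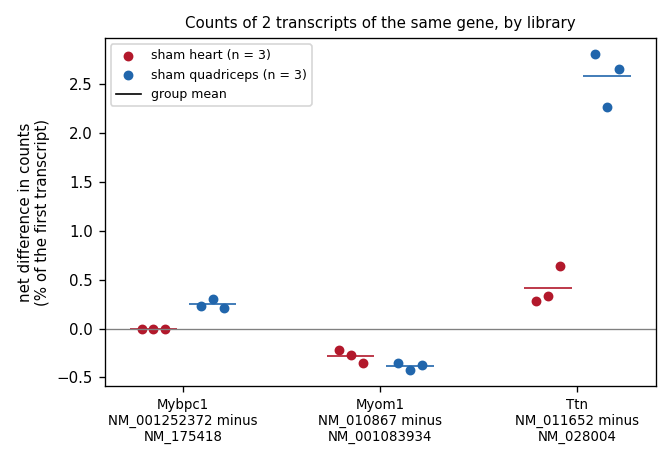
Net difference in counts between 2 transcripts of the same gene, as a percentage of the first transcript, for Mybpc1, Myom1 and Ttn; points are libraries and lines are group means. For Ttn the quadriceps libraries lie at 2.27% to 2.81% and the heart libraries at 0.281% to 0.636%.

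The myomesins are the cross-linkers of the M-band. Myom1, the myomesin of all striated muscle, had 1131, 1044 and 1022 TMM-scaled CPM in heart and 1081, 1209 and 1416 in quadriceps (NM_001083934). The tissues overlapped, since quadriceps 1 was below heart 1. The log2 fold change was 0.21 (SE 0.14, adjusted p = 0.196, edgeR's quasi-likelihood test), and 0.21 for NM_010867 (adjusted p = 0.199). With library totals it was -0.54 and called lower (adjusted p = 0.00372 and 0.00369), and without quadriceps 1 it was 0.33 and 0.32 and called higher (adjusted p = 0.0247 and 0.0254). In RPKM, which divide by library totals, it was 262 ± 12.4 in heart and 180 ± 20.1 in quadriceps (SD, n = 3).

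Myom2, or M-protein, a myomesin of adult heart and fast muscle, had 710, 670 and 532 TMM-scaled CPM in heart and 779, 1045 and 1038 in quadriceps. The tissues did not overlap on this scale, with quadriceps 1 the nearest to heart. The log2 fold change was 0.58 (SE 0.16, adjusted p = 0.0110, edgeR's quasi-likelihood test), but it was -0.18 (adjusted p = 0.280) with library totals and 0.47 (adjusted p = 0.0575) without heart 3. The direction for Myom1 and Myom2 therefore flips with the scaling.

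Myom3, a myomesin of skeletal muscle, kept its direction and its call under all 15 other settings tried, at log2 fold changes of 2.45 to 4.42. It had 165, 172 and 120 counts in heart and 1412, 1354 and 1418 counts in quadriceps, without overlap. Its level was 0.756 ± 0.0878 RPKM in heart and 8.72 ± 1.94 RPKM in quadriceps (SD, n = 3), a log2 fold change of 4.28 (SE 0.19, adjusted p = 1.04e-07, edgeR's quasi-likelihood test). It was still the smallest of the family: by RPKM, Myom3 was 0.175% ± 0.00877 of the myomesins in heart and 2.57% ± 0.338 in quadriceps. Myom1 was 60.9% ± 2.72 in heart and 53.3% ± 2.31 in quadriceps, and Myom2 38.9% ± 2.71 and 44.1% ± 2.55.

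**Figure D5:**
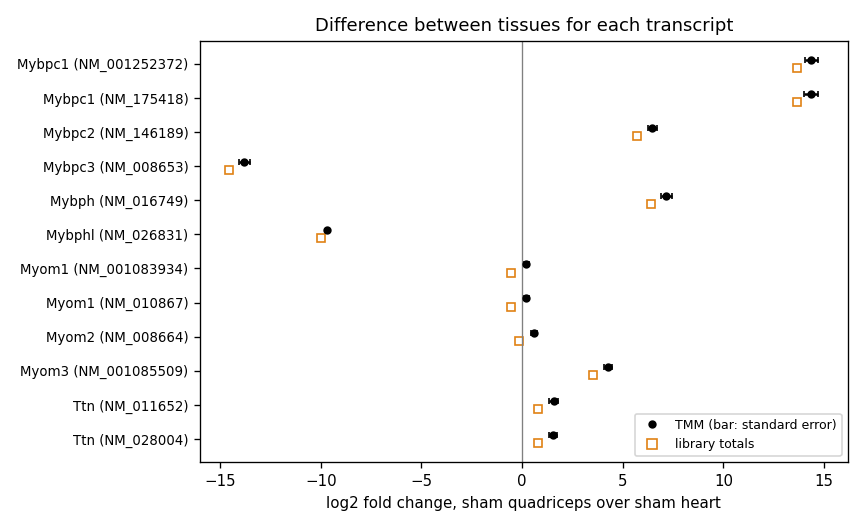
Log2 fold change of quadriceps over heart for the 12 transcripts with TMM scaling (filled points, bars show the standard error; none was estimated for Mybphl, whose fitted value is no bound) and with library totals (open squares). The 3 points of Myom1 and Myom2 change sign between the scalings and the other 9 do not.

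Per length, ratios to titin within a library need no scaling between libraries. The summed myosin-binding proteins were 17.3 ± 0.254 times Ttn in heart and 11.4 ± 1.66 times in quadriceps (SD, n = 3). The summed myomesins were 11.0 ± 0.245 times Ttn in heart and 5.05 ± 0.953 times in quadriceps. The libraries of the tissues did not overlap for either ratio. The adult myosin heavy chains showed the same order, at 107 ± 5.93 times Ttn in heart and 66.8 ± 10.6 times in quadriceps. All of these ratios share Ttn (39.3 RPKM in heart and 68.9 RPKM in quadriceps) as denominator and are not separate evidence. The sums themselves overlapped for the myosin-binding proteins (679 and 767 RPKM) and the heavy chains (4200 and 4565 RPKM). The myomesin sum was lower in quadriceps without overlap (431 and 337 RPKM).

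The order of levels in heart, per length, was Mybpc3, Myom1, Myom2, Ttn, Mybpc2, Mybphl, Myom3, Mybph and Mybpc1. Neighbours down to Mybpc2 did not overlap, while Mybphl, at 0.143 to 8.30 RPKM, overlapped Mybpc2, Myom3 and Mybph. In quadriceps the order was Mybpc2, Mybpc1, Myom1, Myom2, Ttn, Mybph, Myom3, Mybpc3 and Mybphl. Mybpc2 and Mybpc1 overlapped there, and Myom1 and Myom2 came close, at 166 to 203 RPKM and 132 to 160 RPKM.

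In the GENCODE M21 annotation of GRCm38, 7 of the 9 genes overlap another gene. On the opposite strand these are the adenosine receptor gene Adora1 at Mybph, the myosin light chain gene Myl12a at the start of Myom1, and the genes Gm48752 at Mybpc1, Gm44646 at Mybpc2, Gm12522 at Mybphl, Gm15678 at Myom2 and Gm13938 at Ttn. A non-coding gene, Gm26561, spans Myom1 on the same strand. Mybpc3 and Myom3 overlap none. Whether strand was used in counting is not given in the sources used here, so reads from such partners cannot be told apart from those of the 7 genes.

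The partners of the thick filament changed in both directions, and the log2 fold changes of named genes are given in parentheses. The motors themselves, 14 myosin heavy and light chains, were called in full, 7 higher and 7 lower in quadriceps, with a median log2 fold change of 0.25, where 32.1% of 14906 genes were called higher and 33.9% lower with a median of -0.05. The fast light chain Mylpf (15.23) and Myh4 (15.16) were the most positive, and Myh6 (-12.53) and the atrial light chain Myl7 (-9.76) the most negative. The fitted value of Myl7 rests on 1 count in quadriceps 1 and 0 in the others and is no bound. Myl7 lost its call without quadriceps 1 (adjusted p = 0.0697), and without heart 1 or heart 2 it did not pass the count filter. The atrial light chain Myl4 (-3.63) rested on heart 1, without which its fold change was 6.17 times smaller and not called (adjusted p = 0.202). Without any 1 of the quadriceps libraries Myl4 stayed at -3.43 to -3.87 but was not called (adjusted p = 0.0542 to 0.0743). The motors called lower were 5 without heart 1 and 5 without quadriceps 1. Of 12 partners of the titin spring and Z-disc, 7 were higher and 4 lower, with a median of 2.36. The actin cross-linker Actn3 (16.22) and the titin-binding ankyrin repeat protein Ankrd2 (9.41) were the most positive, the nebulin relative Nebl (-9.12) and Ankrd1 (-5.11) the most negative, and the small chaperone Cryab was not called (0.45, adjusted p = 0.255). Ankrd1 stood at 7.07, 3.44 and 64.5 RPKM in quadriceps 1, 2 and 3 and at -7.39 without quadriceps 3, Nebl, with 4, 0 and 1 counts in quadriceps, moved to -8.53 without quadriceps 2 and has 1 count left without quadriceps 1, and Cryab was called higher without quadriceps 1 (0.76, adjusted p = 0.0158).

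Of 18 partners at the M-band and A-band, 10 were called higher and 4 lower with TMM (median 0.73), and 5 higher and 8 lower with library totals, where 13.6% of all genes were higher and 62.0% lower. Ckm (4.14), which is anchored at the M-band, and Cmya5 (1.39) were the most positive. Fhl2 (-8.90), a LIM protein that binds titin, and the obscurin relative Obsl1 (-1.80) were the most negative. Hsp90aa1, called lower (-0.97, adjusted p = 0.0294, edgeR's quasi-likelihood test), lost its call without heart 1, 2 or 3 (adjusted p = 0.0762, 0.0609 and 0.0519). Alpk3 (0.08), Lrrc39 (-0.24), Nbr1 (0.13) and the ligase Trim55 (-0.27) were not called (adjusted p = 0.501, 0.0991, 0.224 and 0.0678, edgeR's quasi-likelihood test), and Lrrc39 was called lower without quadriceps 1 (-0.31, adjusted p = 0.0245). Of 15 kinases and phosphatases that act on myosin-binding protein C or titin, or belong to the same enzyme families, 9 were higher and 5 lower (median 0.52), against 4 and 7 with library totals, under which most genes of the table were lower. Camk2a (3.62) and Camk2b (3.02) were the most positive. The most negative were Prkaca (-1.40), the protein kinase A subunit that phosphorylates cardiac myosin-binding protein C, and Camk2d (-1.14), the main cardiac calmodulin kinase. Ppp1ca (-0.30) was not called (adjusted p = 0.0700, and 0.0163 without quadriceps 2). Ppp5c, called lower (-0.34, adjusted p = 0.0301, edgeR's quasi-likelihood test), lost its call without heart 1, 2 or 3 or quadriceps 1 (adjusted p = 0.0624 to 0.0839).

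The genes most like each member over the 6 libraries were named by Euclidean distance in log2(RPKM + 0.5) among 14897 genes. Mybpc3 was nearest to Nppa (1.73) and Fhl2 (2.04), and Mybpc1 to Ampd1 (0.79), the adenylate deaminase of skeletal muscle, and Myh1 (1.07). Mybph was nearest to Cib2 (0.80) and Gapdh (0.90), a gene with many near-identical copies whose counts are uncertain, and Mybpc2 to Tmod4 (2.03) and the non-coding RNA H19 (2.35). Myom1 was nearest to Fxyd1 (0.38) and Idh3b (0.55), Myom2 to the muscle ribosomal protein gene Rpl3l (0.41) and Srl (0.42), and Myom3 to Dusp26 (0.46) and Tmem56 (0.59). Ttn was nearest to Cap2 (0.58) and Psmd6 (0.59). Mybphl had distances of 2.07 to Cacna2d2 and 2.29 to Ptgfr.

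Markers of other cell types were counted with the same test, 3 genes a list unless said. Over all genes, 32.1% were called higher and 33.9% lower. The RPKM sums divide by library totals, under which 62.0% of all genes were called lower, while the calls use TMM. For endothelium (120 RPKM summed in heart and 22.5 RPKM in quadriceps) and red cells (287 and 51.9 RPKM) 3 of 3 were called lower in quadriceps. For fibroblasts (237 and 121 RPKM) and macrophages (10.4 and 3.58 RPKM) 2 of 3 were lower. The fibroblast sum was mostly Dcn (217 and 115 RPKM), which was not called with TMM (-0.18, adjusted p = 0.272, edgeR's quasi-likelihood test). Smooth muscle markers (45.0 and 20.1 RPKM) went in different directions: Acta2 was lower (-1.29), Tagln higher (0.76) and Myh11 not called (0.05, adjusted p = 0.824). Of 6 slow fibre markers (14452 and 409 RPKM), most of which the heart also expresses, 2 were higher and 4 lower. Adipocyte markers, 3 of 3 called higher in quadriceps, were 0.789, 0.384 and 0.252 RPKM in heart 1, 2 and 3 and 33.0, 11.4 and 3.68 RPKM in quadriceps 1, 2 and 3, with Adipoq the highest. Schwann cell markers summed to 1.58 and 9.30 RPKM, with 2 of 3 called higher. The satellite cell markers Pax7 and Myf5 were at 0 in every heart library and summed to 0.606 RPKM in quadriceps. The part of these cells in the results for the 9 genes was not tested.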

How the data were processed

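RNA-seq of 3 sham heart and 3 sham quadriceps libraries was used. Per the study's methods and the submitters' processing notes, the authors purified mRNA, made single-end libraries, trimmed reads with Trim Galore, aligned them to mm10 with STAR and counted with Rsubread. The authors deposited raw counts per RefSeq transcript. They also deposited RPKM, which equal counts divided by transcript length and library total. The authors' own log2 fold changes and p-values in the same table were not used, nor were 12 columns of single libraries in the TAC table, which lists none of the members.

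Counts were tested, for transcripts that exceeded 5 counts in 2 or more libraries, with edgeR 4.0.16 in R 4.3.3 (TMM, quasi-likelihood test, Benjamini-Hochberg adjustment), without covariates. Scripts were tested on simulated data. Alternatives were DESeq2 1.42.0, library totals, other filters, limma 3.58.1 on log2(RPKM + 0.5), 1 transcript per gene, a replicate block and leaving out each library. Replicates differed by more than sampling noise (lowest chi-square per degree of freedom 7.15). This value was 7.15 to 10.4 between heart libraries and 31.9 to 56.2 between quadriceps libraries. Depth was 23383452 to 38382751 counts. Promoters came from RefSeq (GRCm38.p6), gene positions from GENCODE M21.

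Named genes were the 9 members, the extremes and uncalled genes of each list and the 2 nearest genes of each member, and markers served to check labels. The members and lists were chosen with earlier results of these data known. The comparison of protein sequences was not made.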

Additional observations from a re-analysis of the deposited data

How the results depend on the processing

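Depth limits Mybpc1 in heart, Mybpc3 in quadriceps and Mybphl in both tissues, where single libraries held few or 0 counts, and 3 libraries a group limit every test. Of 173 log2 fold changes of member transcripts recomputed under 15 other settings, 153 kept their direction and their side of the threshold, 6 lost a call, 2 gained one and 12 reversed. The 12 were Myom1 and Myom2 under the 4 settings that divide by library totals. Over its transcripts Ttn ranged from 0.74 to 1.69 and Mybpc1 from 8.22 to 14.57. Mybpc2 ranged from 5.54 to 6.66, Mybpc3 from -14.54 to -9.34, Mybph from 4.63 to 7.36 and Myom3 from 2.45 to 4.42.

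With library totals, 3241 transcripts were higher and 15203 lower, 4 member transcripts were lower, the M-band and A-band list gave 5 higher and 8 lower and the kinase list 4 higher. Myom1 was then -0.54 for both transcripts and Myom2 -0.18. With limma on log2(RPKM + 0.5), log2(RPKM + 1) and log2(RPKM + 0.1), 3201, 3194 and 3218 transcripts were higher and 15319, 15322 and 15365 lower. In each of these the M-band and A-band list gave 4 higher and 8 lower, the kinase list 4 higher and 8 lower, Myom1 was -0.55 (NM_001083934, -0.54 with the pseudocount of 1) and -0.55 (NM_010867) and Myom2 -0.17. Mybphl was -1.84 (adjusted p = 0.0846) and -1.34 (adjusted p = 0.119) with the pseudocounts of 0.5 and 1, where 1 member transcript was below a log2 fold change of -2, and with 0.1 the lower member transcripts were 4. These settings share the scaling of RPKM, and a larger pseudocount shrinks low genes by its construction.

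With at least 10 counts in every library, the filter removed Mybpc1, Mybpc3 and Mybphl, so 0 member transcripts were called lower, and 3 were above and 0 below the log2 fold change of 2. With 1 transcript per gene, 4744 of 14906 genes were higher and 5059 lower. Leaving out a library gave 1 to 2 lower member transcripts, since Mybphl lost its call without any 1 of the quadriceps libraries. The cause of that loss was not tested. Member transcripts with a log2 fold change below -2 and an unadjusted p under 0.05 were also 1 to 2. Averaging the transcripts of a gene gave 15.4 for the myosin-binding proteins over Ttn in heart and 9.65 for the myomesins. These values are for heart only and cannot be set against the quadriceps ratios above, which use 1 transcript a gene.

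Deviations of same-numbered heart and quadriceps libraries correlated at -0.10 to 0.02. With 3 libraries a group from different organs, these values cannot show whether the replicate numbers pair the animals. With the replicate block, 7541 transcripts were higher and 8175 lower, and the member calls stayed at 8 higher and 2 lower. For Mybphl the adjusted p was 4.11e-06 with the block and 0.0403 without it (edgeR's quasi-likelihood test).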
